A study of Bos taurus with 18 samples.

Results

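The carriers that move glucose, fructose and lactate across the membranes of the early bovine embryo were followed on 18 Affymetrix bovine arrays. All probe sets whose single listed gene symbol begins with SLC2A, or is SLC16A1 or SLC16A3, were taken, which gave 9 genes of the 9155 named on the array, measured by 14 of the 24016 probe sets tested. SLC2A1, SLC2A3, SLC2A4, SLC2A6, SLC2A8 and SLC16A1 had 1 probe set each, SLC2A2 had 2, and SLC2A5 and SLC16A3 had 3 each, called here brightest, middle and dimmest by their mean signal. All 9 genes are autosomal in the assembly ARS-UCD2.0. The rule used the symbols and no measured value, though the members were chosen with earlier results of these data known.

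The SLC2A genes encode the GLUT proteins, which let hexoses cross a membrane down their gradient. SLC16A1 and SLC16A3 encode MCT1 and MCT4, which carry lactate, pyruvate and other monocarboxylates together with a proton. The preimplantation embryo relies on pyruvate and lactate in its first cleavages and takes up more glucose as the blastocyst forms and its trophectoderm becomes a transporting epithelium.

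RNA came from female and male blastocysts snap frozen on day 7 after insemination in vitro, described as mixed breed and produced with sex-sorted semen of bull 3, bull 2 or bull 1. Each array held RNA of 1 pool of 60 blastocysts of 1 sex and 1 bull, and there were 3 arrays for every pairing of sex and bull (6 groups, 9 arrays per sex, 6 per bull). The labels do not say that pools of the same sex and bull were made on separate occasions. The p-values thus take in only the variation among these pools, which may be technical. Each bull is a single sire, and a batch of production or scanning shared by the arrays of 1 bull cannot be told apart from the sire.

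Values are log2 expression values, with array medians between 5.33 and 5.49. XIST, the RNA of the inactive X chromosome, ran from 8.87 to 9.57 in females and from 5.93 to 7.28 in males. Of 11 trophectoderm markers 6 were measured and 4 of them lay above the median signal of all probe sets, as did 4 of 5 measured markers of the inner cell mass and 6 of 7 of the primitive endoderm. Of 9 measured cumulus and granulosa markers, 3 lay above that median, and FSHR, PTX3 and TNFAIP6 lay in the lowest 25% of signals. Also above the median were 2 of 6 measured oocyte markers, 4 of 4 of sperm and 2 of 4 of blood. A pool holds whole embryos, so that fewer cells of a type and less RNA per cell cannot be told apart. On 4 arrays (1 of females and 3 of males) the values scattered widely around each probe set's median over arrays, with an interquartile range above 0.25. They were female bull 1 replicate 3 and male bull 1 replicate 2, bull 2 replicate 1 and bull 3 replicate 3. The 5′ minus 3′ signal of 3 control transcripts, a sign of RNA integrity, averaged -0.69 on the arrays of bull 3, -0.25 on those of bull 2 and -0.10 on those of bull 1 (n = 6 each). By sex it averaged -0.35 in females (range -0.79 to 0.05) and -0.35 in males (range -1.27 to 0.45, n = 9 each).

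The first comparison asked which carriers differ between female and male blastocysts. SLC2A8, which encodes GLUT8, a glucose carrier held mainly on intracellular membranes and known in mouse blastocysts for its response to insulin, was lower in females than in males, with estimates in that direction for each of the 3 bulls. SLC2A5, which encodes the fructose carrier GLUT5, was slightly lower in females by 1 of its 3 probe sets. The other 12 probe sets, among them the only ones of SLC2A1, SLC2A3 and SLC16A1, did not pass the test. The test was limma's for female minus male averaged over the bulls, with Benjamini-Hochberg adjustment over all probe sets and a threshold of 0.05. It called 15.6% of all probe sets (8.12% higher and 7.47% lower in females), against 2 of the 14 carrier probe sets (14.3%), both lower in females, so that the carriers were called about as often as the array as a whole.

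SLC2A8 had values of 8.80, 8.81 and 8.93 in females of bull 3, against 9.31, 9.28 and 9.15 in males of that bull. With bull 2 it had 8.74, 9.06 and 8.95 in females, against 9.29, 9.21 and 9.21 in males. With bull 1 it had 8.87, 9.04 and 9.27 in females, against 9.35, 9.61 and 9.17 in males. The sexes did not overlap in bulls 3 and 2, and in bull 1 a single female pool, replicate 3 at 9.27, stood above the lowest male pool. Groups of 3 arrays can also separate by chance, and the share of all probe sets that separate was not counted. Over all bulls 8 of 9 female arrays lay below the lowest male array. The mean was 8.94 ± 0.16 in females and 9.29 ± 0.14 in males (SD, n = 9 each), a log2 difference of -0.35 with a standard error of 0.07 (95% confidence interval -0.49 to -0.20), or 1.27-fold lower in females (limma, adjusted p = 0.00186). The call held in all 18 fits that left out 1 array, with differences from -0.38 to -0.31 (adjusted p = 0.000816 to 0.00542), and in all 12 other fits, with -0.37 to -0.32 (adjusted p = 7.27e-05 to 0.049).

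The brightest SLC2A5 probe set ran from 11.85 through a median of 12.03 to 12.11 in females, and from 12.04 through 12.18 to 12.30 in males. The ranges overlapped, with 6 female arrays below every male array and 6 male arrays above every female array. The log2 difference was -0.17 with a standard error of 0.05 (1.12-fold lower in females, adjusted p = 0.0283). It was -0.30 in bull 3, -0.05 in bull 2 and -0.14 in bull 1, and the sexes were apart without overlap in bull 3 only, where females had 11.93, 11.85 and 12.03 and males 12.27, 12.30 and 12.14. The call was lost without the arrays of bull 3 (-0.10, adjusted p = 0.413), bull 2 (-0.22, adjusted p = 0.0721) or bull 1 (-0.18, adjusted p = 0.0698), with the bull as the replicate (adjusted p = 0.151), and in 9 of 18 fits without 1 array. The middle SLC2A5 probe set differed by -0.21 (95% confidence interval -0.44 to 0.03, adjusted p = 0.267) and passed without male bull 3 replicate 3 (-0.30, adjusted p = 0.0246). That was 1 of 18 fits without 1 array, and 1 of 12 other fits passed. The dimmest differed by -0.12 (-0.28 to 0.04) and did not pass.

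SLC16A1, whose product MCT1 is a main lactate and pyruvate carrier of many cells, lay just outside the threshold. It ran from 10.17 through 10.44 to 10.74 in females, and from 10.24 through 10.64 to 10.78 in males, so that the sexes overlapped widely. The log2 difference was -0.18 (95% confidence interval -0.31 to -0.05, adjusted p = 0.0642). It passed without male bull 3 replicate 3 (-0.21, adjusted p = 0.0182) or male bull 1 replicate 1 (-0.21, adjusted p = 0.0373), and without the 4 arrays of wide scatter (-0.22, adjusted p = 0.0264). In all, it passed in 2 of 18 fits without 1 array and in 5 of 12 other fits, with adjusted p up to 0.277.

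**Figure D1:**
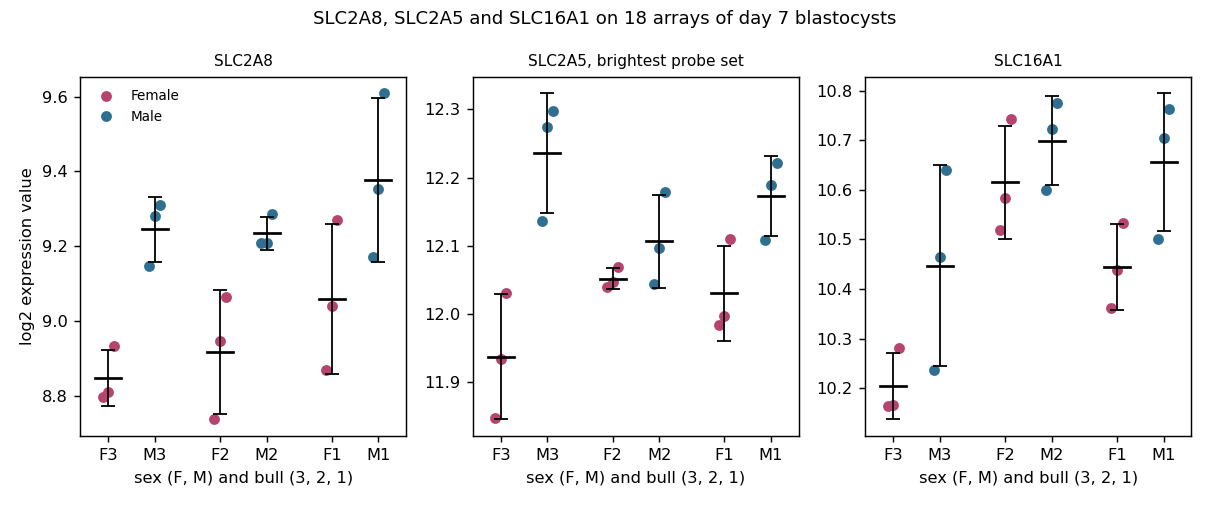
Log2 expression values of SLC2A8, SLC2A5 (brightest probe set) and SLC16A1 on each array (points), by sex and bull, with bar and whiskers for the mean and SD of 3 arrays. Each y axis has its own range; for SLC2A8 the females of bulls 3 and 2 lie below all males of the same bull, and for SLC16A1 the sexes overlap.

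Of the widely expressed glucose carriers, SLC2A1, which encodes the basal carrier GLUT1, differed by -0.07 between the sexes (95% confidence interval -0.19 to 0.06). It ran from 10.13 through 10.39 to 10.67 in females, and from 10.23 through 10.49 to 10.58 in males. SLC2A3, which encodes the high affinity carrier GLUT3 of neurons and trophectoderm, differed by -0.14 (-0.40 to 0.11), with 5.55 to 6.92 in females and 5.36 to 6.78 in males. Neither gene separated the sexes, and a test that is not passed does not show equal levels. The interval of SLC2A3 is the wider, and its arrays also spread more within groups.

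The carriers with tissue-restricted roles did not pass either. SLC2A4, the insulin-responsive carrier of muscle and fat, was the only one with a positive estimate, 0.18 (95% confidence interval -0.03 to 0.40), at 4.99 ± 0.24 in females and 4.81 ± 0.25 in males (SD, n = 9 each). The probe sets of SLC2A2, the carrier of liver and pancreatic beta cells, differed by -0.02 and -0.10 at mean signals of 3.17 and 2.95, within the lowest 16.7% of the array. SLC2A6 differed by -0.08 (-0.25 to 0.08). The 3 probe sets of SLC16A3, whose product MCT4 exports lactate from glycolytic cells, differed by -0.16, -0.08 and -0.08, and their means lay below the median signal of all probe sets. With 1 female array left out, bull 2 replicate 1, the middle SLC16A3 probe set passed (-0.23, adjusted p = 0.0426). That was 1 of 18 fits without 1 array, and 0 of 11 other fits passed. Within bull 1 its values did not overlap, at 3.76 to 3.98 in females and 4.12 to 4.30 in males, without a call (adjusted p = 0.23).

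**Figure D2:**
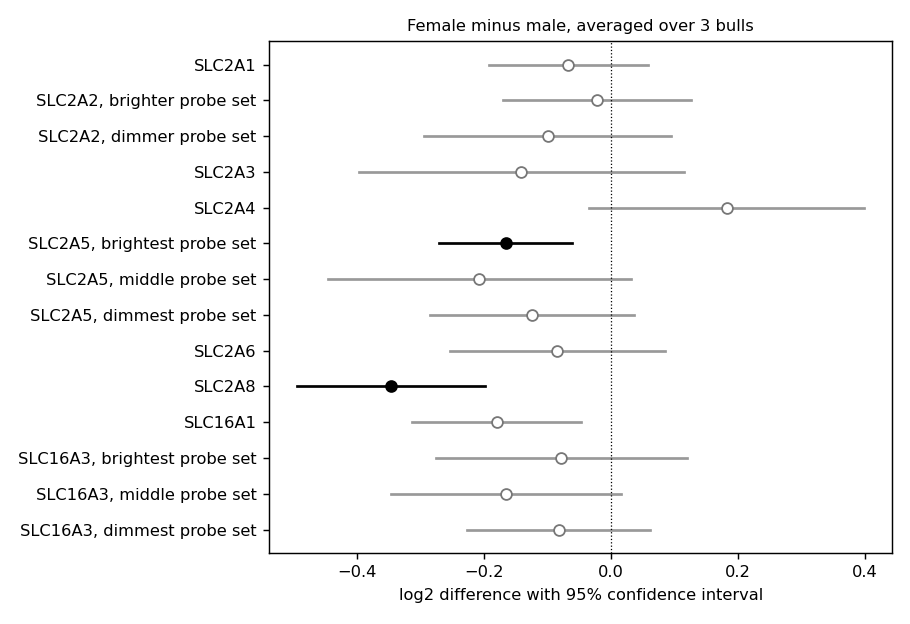
Female minus male log2 difference of each of the 14 probe sets (points) with its 95% confidence interval (lines), averaged over 3 bulls and 18 arrays. Filled points passed limma's test; SLC2A8 at -0.35 lies farthest from 0, and SLC2A4 is the only probe set above 0.

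Estimates were below 0 for 13 of the 14 carrier probe sets, with a median of -0.11, against 58.3% of all probe sets and a median of -0.03. Probe sets of 1 gene are not independent, so this is a description only. For cell markers the linear signals of a list were summed on each array and given as the log2 of the sum, which the brightest genes of the list dominate. For trophectoderm genes this ran from 14.19 to 14.36 in females and from 14.09 to 14.30 in males. For inner cell mass genes it ran from 13.08 to 13.25 in females and from 12.97 to 13.25 in males. For primitive endoderm genes it ran from 13.91 to 14.08 in females and from 13.87 to 14.07 in males. For cumulus and granulosa genes it ran from 10.59 to 10.89 in females and from 10.72 to 11.01 in males. For oocyte genes it ran from 8.54 through a median of 8.77 to 9.05 in females, and from 8.32 through 8.44 to 8.79 in males. For sperm genes it ran from 9.83 to 10.04 in females and from 9.86 to 10.15 in males, and for blood genes from 7.73 to 9.53 in females and from 7.63 to 8.73 in males. The ranges of the sexes overlapped for each of these 7 lists. Within the lists, single genes moved in both directions. Of 16 cumulus and granulosa probe sets 3 were higher in females (CYP19A1, 0.56, TNFAIP6, 0.44, and DCN, 0.33). In that list 2 were lower (HAS2, -0.30, and COL1A2, -0.26). Of 6 trophectoderm probe sets 1 was higher (the interferon IFNT2, 0.59) and 1 lower (ASCL2, -0.42). Of 6 inner cell mass probe sets 2 were higher (SPP1, 0.56, and STAT3, 0.28) and 0 lower. Of 11 primitive endoderm probe sets 1 was lower, that of GATA4 (-0.22, adjusted p = 0.0324), and of 7 oocyte probe sets 1 was higher, that of OOEP (0.36, adjusted p = 0.00311). All 4 sperm probe sets were called, with differences of 1.73 for PRM1, 0.88 for TNP1, -0.25 for ODF2 and -0.28 for SPA17. Of 9 blood probe sets 3 were higher, of the globins HBB and HBA, and 1 lower, of CD68 (-0.43). The part of these in the sex differences of the carriers was not tested.

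Within single bulls no carrier passed. The test called 4.18% of all probe sets in bull 3, 3.13% in bull 2 and 4.2% in bull 1. SLC2A8 came closest in bull 3, at -0.40 (adjusted p = 0.0768), with -0.32 in bull 2 (adjusted p = 0.21) and -0.32 in bull 1 (adjusted p = 0.175). In bull 3 the adjusted p of the brightest SLC2A5 probe set was 0.0582. Quantile normalization moved both past the threshold there (adjusted p = 0.046 for SLC2A8 and 0.02 for SLC2A5). Whether the sex difference itself varies between bulls was tested as an interaction, which called no carrier and 0 of all 24016 probe sets (0%). At an unadjusted p under 0.05 it held 656 probe sets (2.73%) and 0 of the carriers, and the analysis of variance without moderation called 0 as well. The smallest interaction p among the carriers was 0.155, for the brightest SLC2A5 probe set.

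The second comparison set the sires against each other, averaged over the sexes. SLC2A3 was highest in embryos of bull 2, the middle SLC2A5 probe set was lowest in those of bull 3, and SLC16A1 was lower with bull 3 than with bull 2. SLC2A8, the carrier that differed by sex, passed in none of the 3 comparisons of bulls. Of the 14 carrier probe sets, 3 (21.4%) were called for bull 3 minus bull 2, all lower, against 3.74% of all probe sets (2.04% lower). For bull 3 minus bull 1, 1 (7.14%) was called, lower, against 3.53% (2.35% lower). For bull 2 minus bull 1, 1 (7.14%) was called, higher, against 1.52% (0.475% higher). The 3 comparisons share arrays, so that these counts are not separate evidence.

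SLC2A3 had 5.64, 5.55 and 5.97 in females and 6.45, 5.98 and 5.36 in males of bull 3. With bull 2 it had 6.92, 6.47 and 6.33 in females and 6.78, 6.64 and 6.76 in males. With bull 1 it had 6.25, 6.02 and 5.77 in females and 6.19, 5.86 and 6.17 in males. All arrays of bull 2 lay above all of bull 1, while 1 array of bull 3, male replicate 1 at 6.45, reached into the range of bull 2. Bull 3 minus bull 2 was -0.83 with a standard error of 0.15 (1.77-fold lower with bull 3, adjusted p = 0.00514), at -0.86 in females and -0.79 in males. Bull 2 minus bull 1 was 0.61 with a standard error of 0.15 (1.52-fold higher with bull 2, adjusted p = 0.0489), at 0.56 in females and 0.65 in males. Bull 3 minus bull 1 was -0.22 (95% confidence interval -0.53 to 0.09).

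The lower level of SLC2A3 with bull 3 than with bull 2 passed in all 18 fits without 1 array (-0.96 to -0.68). It did not pass with the 5′ minus 3′ index as a covariate (-0.66, adjusted p = 0.135). With that covariate 143 of all 24016 probe sets were called for bull 3 minus bull 2, against 897 without it. The difference between bulls 2 and 1 passed in 3 of 18 fits without 1 array, with values from 0.52 to 0.67 (adjusted p = 0.0136 to 0.134). Among 16 cumulus and granulosa probe sets, DCN, of a matrix proteoglycan, was also lower with bull 3 than with bull 2 (-0.66, adjusted p = 0.0114), and HAS2, a hyaluronan synthase, was higher (0.27, adjusted p = 0.0335). The matrix genes POSTN and DCN were also higher with bull 2 than with bull 1 (2.16 log2, adjusted p = 0.0197, and 0.84 log2, adjusted p = 0.00383), and CYP19A1 was lower (-0.49, adjusted p = 0.03). For bull 3 minus bull 1, HAS2 was higher (0.50) and CYP19A1 lower (-0.40), as ASCL2 of the trophectoderm (0.46) and SOX2 of the inner cell mass (0.44) were higher. The log2 of the summed linear signals of the cumulus and granulosa genes ran from 10.61 to 10.88 with bull 3, 10.59 to 10.88 with bull 2 and 10.72 to 11.01 with bull 1. The part of these markers in the SLC2A3 differences was not tested.

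SLC2A1 was also highest on average with bull 2, but did not pass. It ran from 10.26 through 10.33 to 10.49 with bull 3, from 10.50 through 10.56 to 10.67 with bull 2, and from 10.13 through 10.31 to 10.52 with bull 1. The arrays of bull 3 all lay below those of bull 2, by 0.22 log2 on average (95% confidence interval of the difference -0.37 to -0.07, adjusted p = 0.098). Bull 2 minus bull 1 was 0.25 (0.10 to 0.40, adjusted p = 0.0903), and bulls 3 and 1 differed by 0.03 (-0.13 to 0.18). With quantile normalization the difference of bulls 2 and 1 passed (0.28, adjusted p = 0.0357). It passed in 0 of 18 fits without 1 array and in 4 of 8 other fits, quantile normalization included.

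**Figure D3:**
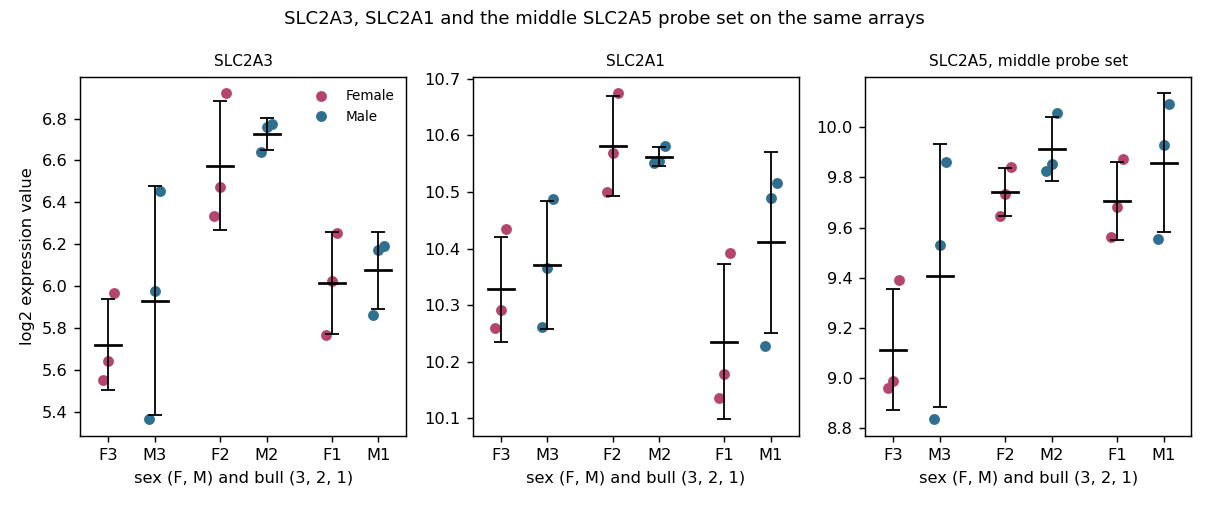
Log2 expression values of SLC2A3, SLC2A1 and the middle SLC2A5 probe set on each array (points), by sex and bull, with bar and whiskers for the mean and SD of 3 arrays. Each y axis has its own range; the arrays of bull 2 lie highest for SLC2A3 and SLC2A1 on average, and those of bull 3 lowest for SLC2A5.

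The 3 probe sets of SLC2A5 differed in what they showed. The middle one had 8.96, 8.99 and 9.39 in females and 9.53, 9.86 and 8.84 in males of bull 3, against 9.65 to 10.06 over both sexes of bull 2 and 9.55 to 10.09 with bull 1. It was lower with bull 3 than with bull 2 by 1.48-fold (-0.57, adjusted p = 0.0282) and than with bull 1 by 1.44-fold (-0.52, adjusted p = 0.0442). These calls held in 12 and in 3 of 18 fits without 1 array. Without male bull 3 replicate 3, the lowest array, the differences were -0.42 (adjusted p = 0.0516) and -0.38 (adjusted p = 0.09). With the 5′ minus 3′ index as a covariate the differences were -0.19 (adjusted p = 0.454) and -0.01 (adjusted p = 1). Without the 4 arrays of wide scatter they were -0.39 (adjusted p = 0.0585) and -0.28 (adjusted p = 0.205). With the covariate, 143 and 12 of all probe sets were called for these pairs of bulls, against 897 and 848 without it.

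The brightest probe set, which differed by sex, gave 0.01 and -0.01 for the same pairs of bulls, with 95% confidence intervals from -0.12 to 0.14 and from -0.14 to 0.11. The gap between the probe sets within an array, middle minus brightest, averaged -2.83 ± 0.30 with bull 3, -2.25 ± 0.15 with bull 2 and -2.32 ± 0.15 with bull 1 (SD, n = 6 each). The change of this gap passed for bull 3 against bull 2 (-0.57, exact permutation test within sex, two-sided, p = 0.005, adjusted over 3 comparisons p = 0.015) and bull 3 against bull 1 (-0.51, exact permutation p = 0.01, adjusted p = 0.015). It did not pass for bull 2 against bull 1 (0.07, exact permutation p = 0.495). The smallest p that the 400 arrangements allow is 0.005, and the test was chosen after the values were seen. It rests on the bull differences of the probe sets already given. It was not repeated with the 5′ minus 3′ index or without the arrays of wide scatter. The dimmest SLC2A5 probe set had a mean signal of 3.47 and passed in no comparison.

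SLC16A1 ran from 10.17 through 10.26 to 10.64 with bull 3, from 10.52 through 10.66 to 10.78 with bull 2, and from 10.36 through 10.52 to 10.76 with bull 1. Bulls 3 and 2 overlapped through male bull 3 replicate 2 at 10.64. Bull 3 minus bull 2 was -0.33 with a standard error of 0.08 (1.26-fold lower with bull 3, adjusted p = 0.0224), at -0.41 in females and -0.25 in males. It did not pass without male bull 3 replicate 3 (-0.28, adjusted p = 0.056), in 4 other fits without 1 array (adjusted p = 0.0518 to 0.0742), without the 4 arrays of wide scatter (-0.27, adjusted p = 0.062), or with the 5′ minus 3′ index as a covariate (-0.21, adjusted p = 0.299). That covariate left 143 of the 897 calls over all probe sets in number, as given above. SLC2A2, SLC2A4, SLC2A6, SLC2A8 and SLC16A3 passed in none of the 3 comparisons, with estimates between -0.28 and 0.22.

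**Figure D4:**
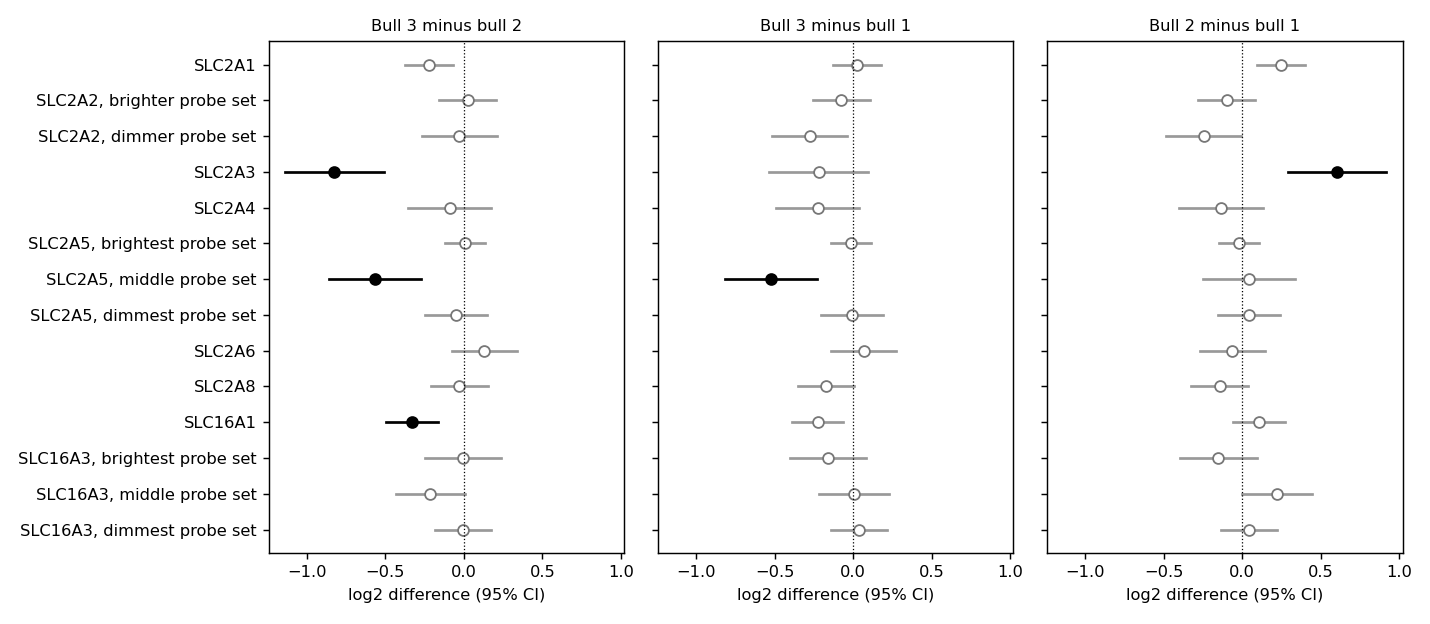
Log2 differences between bulls of the 14 probe sets (points) with 95% confidence intervals (lines), averaged over the sexes (n = 6 arrays per bull); filled points passed limma's test. SLC2A3 stands at -0.83 for bull 3 minus bull 2 and at 0.61 for bull 2 minus bull 1.

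The carriers differed in what their variation over the 18 arrays followed. Sex took 59.1% of the sum of squares of SLC2A8 and 53.8% of that of the brightest SLC2A5 probe set, against a median of 7.09% over all probe sets. Bull took 64.9% for SLC2A3, 53.1% for SLC2A1, 51.4% for the middle SLC2A5 probe set and 49.3% for SLC16A1, against a median of 15.7%. Spread between arrays of the same group took 80.3% for SLC2A6 and 76.4% and 79.6% for 2 probe sets of SLC16A3, against a median of 58.9%. For SLC16A1 that spread took 26.8%, and sex took 20.8%. The SD within groups was 0.07 log2 for the brightest SLC2A5 probe set, lower than in all but 1.97% of probe sets, and 0.30 for SLC2A3, higher than in 96.3% of probe sets. Bright probe sets vary less in general. The median SD was 0.12 in the brightest quintile, which holds this SLC2A5 probe set, and 0.16 over all probe sets.

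**Figure D5:**
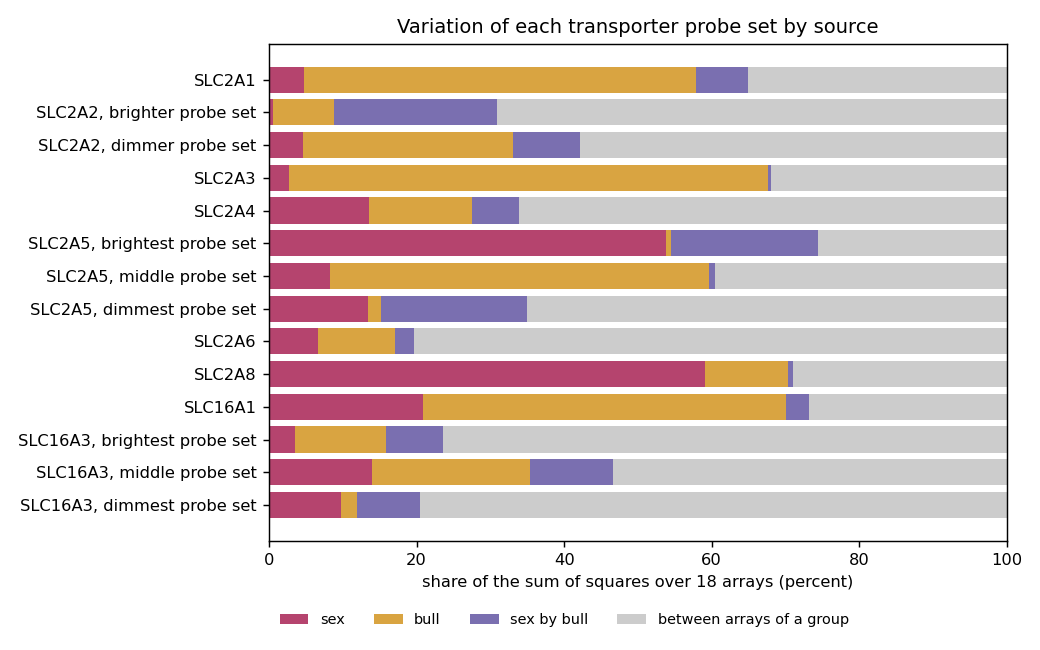
Share of the sum of squares over 18 arrays (percent, x axis) taken by sex, bull, their interaction and the spread between arrays of a group, for each of the 14 probe sets. Sex takes the largest share for SLC2A8 and the brightest SLC2A5 probe set, and bull for SLC2A3, SLC2A1, the middle SLC2A5 probe set and SLC16A1.

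Other genes of hexose and monocarboxylate handling were read beside the carriers, with the same 15.6% of all probe sets called by sex. Among other membrane carriers, 1 of 10 SLC5A probe sets (7 genes) was higher in females and 1 lower. SLC5A1, the sodium-coupled glucose carrier of the intestine, was at 3.40 ± 0.08 in females and 3.62 ± 0.14 in males (-0.21, adjusted p = 0.0168). The one higher in females was SLC5A5, an iodide carrier that does not move glucose (0.62). Of 3 probe sets of SLC16A13, another member of the monocarboxylate carrier family, 1 was lower in females (-0.20, adjusted p = 0.0482). Neither probe set of BSG, basigin, which brings MCT1 and MCT4 to the membrane, passed (0 of 2). The one with the smaller p for sex was dim, at 3.91 in females and 4.05 in males, against a median signal of 5.36 over all probe sets.

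The enzymes that act on the imported sugar moved in both directions. Among 3 hexokinases HKDC1 was lower in females, at 8.13 ± 0.31 against 8.62 ± 0.30 in males (-0.49, adjusted p = 0.000563), and HK1 did not pass (0.12, adjusted p = 0.225). Of 23 probe sets of 17 glycolytic genes 4 were higher in females and 0 lower. They were of the aldolase ALDOC (0.85), the enolase ENO2 (0.57), the phosphofructokinase PFKM (0.45) and the X-linked phosphoglycerate kinase PGK1 (0.31). The ENO2 probe set was dim, at 4.28 in females and 3.71 in males. Of 7 lactate dehydrogenase probe sets 1 was higher, that of LDHA, at 11.33 ± 0.17 in females and 11.03 ± 0.28 in males (0.30, adjusted p = 0.0317). LDHB differed by 0.03 (adjusted p = 0.797). Of 10 pentose phosphate probe sets 0 were called (the smallest adjusted p was 0.0524, for RPE).

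Of 21 probe sets for entry of pyruvate into mitochondria 4 were higher in females and 2 lower. The X-linked PDK3, a kinase that inhibits pyruvate dehydrogenase, was higher by 0.96, and the X-linked PDHA1, the catalytic E1 alpha subunit of that complex, was higher in 2 probe sets (0.39 and 0.53) and lower in 1 (-0.29). MPC2, a subunit of the mitochondrial pyruvate carrier, was higher by 0.20, and DLAT, the acetyltransferase of the complex, was lower (-0.28). Of 13 probe sets of genes for transporter traffic 2 were lower, both of MLXIPL, a glucose-responsive transcription factor (-0.34 and -0.29). The MLXIPL probe set with -0.34 was dim, at 3.85 in females and 4.19 in males. Of 15 for insulin and IGF signalling 1 was lower, a dim probe set of the insulin receptor INSR at 2.98 in females and 3.26 in males (-0.28, adjusted p = 0.022). AKT2 (-0.18, adjusted p = 0.0646) and IGF2R (-0.15, adjusted p = 0.0681) did not pass.

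Of 9 probe sets of hypoxia regulators 3 were higher in females and 2 lower. HIF1A, the oxygen-regulated subunit of the factor that drives SLC2A1 in many cells, was at 9.74 ± 0.06 in females and 9.41 ± 0.10 in males (0.34, adjusted p = 0.000238), and its partner ARNT was higher by 0.34. The prolyl hydroxylases that mark HIF1A for breakdown split, with EGLN3 higher (0.43) and EGLN1 lower in both called probe sets (-0.23 and -0.21). None of 4 probe sets of the AMP-activated kinase was called. SLC2A1 itself differed by -0.07, as given above.

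For bull 3 minus bull 2, SLC2A3, SLC16A1 and only the middle SLC2A5 probe set were called lower, as given above. In that comparison 7 of the 120 probe sets of these lists were called (5.83%), against 3.74% of all probe sets. HKDC1 (0.57) and PFKM (0.52) were higher with bull 3. PDHB (-0.33), 1 probe set of PDHA1 (-0.41), DLAT (-0.40), RPE (-0.24) and ASPSCR1, a tether of SLC2A4 vesicles, in 1 probe set (-1.29) were lower. For bull 3 minus bull 1 RPIA was lower (-0.60), and for bull 2 minus bull 1 RPE was higher (0.28), each the only call of 120.

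Genes with the most similar pattern over the 18 arrays were taken for each of 5 carriers, by Pearson's r among 7915 brighter probe sets with 1 named gene. For SLC2A8 they were MYBL2, a cell cycle transcription factor (r = 0.885, Spearman's rho = 0.831), HADHA, of mitochondrial fatty acid oxidation (r = 0.88, rho = 0.899), and EXOSC4 (r = 0.873, rho = 0.88). For SLC2A5, by its brightest probe set, they were SYNJ2BP (r = 0.907, rho = 0.948), CHKB (r = 0.891, rho = 0.872) and GOT2, the mitochondrial aspartate aminotransferase (r = 0.866, rho = 0.889). All 6 were lower in females than in males (-0.34 to -0.20), as were these carriers.

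For SLC16A1 the nearest were DLAT (r = 0.914, rho = 0.901), ARHGAP18 (r = 0.904, rho = 0.93) and SDF4 (r = 0.901, rho = 0.878). For SLC2A3 they were EIF4H (r = 0.915, rho = 0.911), CLTC, the clathrin heavy chain (r = 0.896, rho = 0.899), and ARHGDIA (r = 0.888, rho = 0.899). For SLC2A1 they were PDCD2L (r = 0.864, rho = 0.874), BNIP3 (r = 0.857, rho = 0.88) and CTDSPL (r = 0.843, rho = 0.878). All 9 were lower with bull 3 than with bull 2 by estimate (-0.81 to -0.20). The 3 nearest to SLC16A1 also had estimates below 0 for female minus male (DLAT -0.28, ARHGAP18 -0.35 and SDF4 -0.16). The similar genes of each carrier were picked for their r, and all share the arrays and their quality with the carriers. Their shared differences by sex or bull are thus no separate evidence, and no p-value is given.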

How the data were processed

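Total RNA of pooled blastocysts was amplified from 50 ng for 18 arrays, as the labels' protocols state. The authors deposited 1 log2 value for each probe set and array. RMA and Partek 6.4 stand in the submitters' processing notes with no role given, and the log2 scale was inferred from the range of the values, 1.89 to 14.15. A change common to all transcripts would not show in values normalized between arrays. Arrays have no read depth, and their number sets the precision.

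From 24128 probe sets, 112 controls were left out. GEO's platform annotation gives 1 gene for 13292 of 24016 probe sets, several for 86 and none for 10638. Older symbols were replaced where the gene number was found in ARS-UCD2.0 (13263 matched, 29 not). A mean for each of 6 groups was estimated in limma 3.58.1 under R 4.3.3 (functions lmFit and eBayes), which left 12 residual degrees of freedom, and p-values were adjusted by Benjamini-Hochberg over all probe sets. Intervals are 95% and not adjusted. The steps were checked on simulated data.

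The members, lists and tests were chosen with earlier results of these data known. All carrier probe sets are reported. For each list, up to 4 genes with the smallest p for sex were selected, and not all of those that did not pass are printed. In addition the genes of the pathway and cell type lists (XIST apart) that were called between bulls are given. Signals depend on the probes, so that levels were not compared between genes, and probe sets of a gene were kept apart. Sequences were not used here. Alternatives were quantile normalization, the brighter 50% of probe sets, no moderation, array weights, a replicate block, an additive model, bull as the replicate, and leaving out bulls or arrays. Leaving out 4 arrays of wide scatter and the 5′ minus 3′ covariate were added after seeing the data.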

Additional observations from a re-analysis of the deposited data

Results flagged for a closer look

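In 9 of 70 groups of 6 or 9 arrays 1 carrier value stood far from the others, as Dixon's gap test at 95% measures it. The groups pool the bulls of a sex or the sexes of a bull, and they share arrays and genes. The count therefore cannot be set against the rate of about 1 in 20 that chance gives in independent uniform groups. Among females, the middle SLC16A3 probe set reached 4.66 in bull 2 replicate 1, next to 4.10, and the dimmest SLC2A5 probe set reached 3.86 in bull 2 replicate 2, next to 3.44. Among males, the middle SLC2A5 probe set was low in bull 3 replicate 3 at 8.84, next to 9.53, and SLC2A8 was high in bull 1 replicate 2 at 9.61, next to 9.35. Both of these male arrays were among the 4 of wide scatter. Within bull 3, the middle SLC16A3 probe set was high in male replicate 3 at 4.40, next to 4.04, and the dimmer SLC2A2 probe set was low in male replicate 1 at 2.67, next to 2.84. Within bull 2, the brightest SLC16A3 probe set was high in male replicate 1, another array of wide scatter, at 5.72, next to 5.16. Within bull 1, the brighter SLC2A2 probe set was low in female replicate 1 at 2.82, next to 3.28, and SLC2A6 was high in male replicate 3 at 5.60, next to 5.38.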

How the results depend on the processing

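SLC2A8 was lower in females and passed the test in all 18 fits without 1 array and all 12 other fits. The number of carrier probe sets called by sex was 2. It was 3 with quantile normalization, among the brighter probe sets, with array weights and with the 5′ minus 3′ covariate. It was 4 without the 4 arrays of wide scatter, and 1 to 4 without 1 array. With the bull as the replicate and without the arrays of bull 1, 2 or 3 it was 1. Within bull 3 it was 0, and 2 with quantile normalization and among the brighter probe sets, 1 without moderation, 5 with array weights, 3 without the 4 arrays of wide scatter, 3 with the 5′ minus 3′ covariate, and 0 to 2 without 1 array. Within bulls 2 and 1, and for the interaction, it was 0 in all fits run. For bull 3 minus bull 2 it was 3, and 4 among the brighter probe sets and with array weights, 1 without the 4 arrays of wide scatter, 0 with the 5′ minus 3′ covariate, and 1 to 3 without 1 array. For bull 3 minus bull 1 it was 1, and 0 without moderation, with the replicate block, without the 4 arrays of wide scatter and with the covariate, and 0 to 2 without 1 array. For bull 2 minus bull 1 it was 1, and 2 with quantile normalization, among the brighter probe sets, with array weights and with the covariate, 0 without moderation and without the 4 arrays of wide scatter, and 0 to 1 without 1 array. Among the brighter probe sets only 7 carrier probe sets were tested, of 12008 in all. The calls over all 24016 probe sets moved as well. By sex they were 3743, and 2787, 2044 and 2182 without bull 1, 2 or 3. They were 4484 without the 4 arrays of wide scatter. Within bull 3 they were 1004, 3144 with array weights, 1545 without the 4 arrays and 910 with the covariate. For bull 3 minus bull 2 the calls over all probe sets were 897, 854 without the 4 arrays and 143 with the covariate. For bull 3 minus bull 1 they were 848, 466 without the 4 arrays and 12 with the covariate. For bull 2 minus bull 1 they were 364, 1161 with array weights, 228 without the 4 arrays and 314 with the covariate. No called difference of a carrier changed sign. Of the other values, for single probe sets, 37 passed under an alternative where they had not, 66 no longer passed and 2410 kept their side of the threshold. The replicate block moved the middle SLC2A5 probe set for bull 3 minus bull 1 to an adjusted p of 0.0618 and ended no other single call. The sample numbers of the labels did not pair the arrays (45 same-numbered pairs correlated at -0.229 to 0.164 in their deviations from group means, 4 of them above 0.1). Where an alternative ended a call, the cause was not tested.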
